A study of Homo sapiens with 4 samples.

Results

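The CCN genes encode 6 secreted matricellular proteins, CCN1 to CCN6, and all 6 had a row in both deposited expression tables, out of 19626 genes listed there. The rule takes them by name and uses no measured value, but the members were chosen with earlier results of these data known. The study had already reported lower CCN1 and CCN2 in these data. ES-2, an established human ovarian cancer cell line that carries the endogenous YAP1-MAML2 (YM) fusion, was transduced with pLKO.1 lentivirus for 8 h on each of 2 days, and RNA was taken 96 h after the first infection. This schedule is that of the sample labels, and the study's methods give another number and length of infections and a shorter time to harvest. The 2 control cultures (shCtl) received a non-targeting shRNA, and the 2 knockdown cultures (shMAML2) received an shRNA directed at MAML2, which lowers both MAML2 and the fusion, so the groups do not separate the loss of the fusion from the loss of MAML2. All 4 libraries come from 1 cell line and the knockdown from 1 shRNA sequence. Outside these libraries, the study reports lower CCN1 and CCN2 by RT-qPCR with this shRNA and with another against MAML2. It contrasts this with cells in which MAML2 alone was knocked out, and takes these genes to be regulated by the fusion. Those measurements are not part of the data used here. The 2 libraries of each group are labelled as biological replicates. The p-values for genes below rest on these 2 libraries per group and on a spread estimated partly across all genes. They therefore do not measure a gene's own spread alone.

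CCN proteins are built from a chain of modules: an insulin-like growth factor binding protein (IGFBP) module, a von Willebrand factor type C module, a thrombospondin type 1 module and a C-terminal cystine knot, which CCN5 lacks. They do not form the scaffold of the matrix but bind integrins, heparan sulfate proteoglycans and growth factors, and so tune adhesion, migration and wound repair. CCN1 (formerly CYR61) and CCN2 (formerly CTGF) are induced quickly by serum, TGF-beta and mechanical load, and are textbook targets of YAP1 and WWTR1 acting through TEAD transcription factors. CCN4, CCN5 and CCN6 were first described as WNT1-inducible secreted proteins (WISP), and CCN3 as the gene NOV.

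Libraries held from 20051083 to 23978660 estimated counts. MAML2, the targeted gene, fell from an RPKM (reads scaled by transcript length and by mapped reads) of 8.61 and 8.26 in shCtl to 3.107 and 2.998 in shMAML2, in the direction of the labels. Its log2 fold change was -1.40 (SE 0.0688), with an adjusted p = 5.18e-10. This and every other adjusted p for a gene comes from the quasi-likelihood test of edgeR after Benjamini-Hochberg adjustment over all genes tested. Its reads include those of the fusion's MAML2 part, and noncoding RNA genes overlap it on the opposite strand. Among markers of ovarian clear cell carcinoma, the labelled tumor type, KRT7 stood at an RPKM of 269 and 267 in shCtl and 108 and 107 in shMAML2, whereas NAPSA, PAX8 and EPCAM stayed under 0.4 in every library. Of 6 fibroblast markers, PDGFRB reached 1.37 and the other 5 stayed under 0.5, and their summed RPKM was 0.910 and 1.10 in shCtl against 1.72 and 1.66 in shMAML2. Smooth muscle markers summed to 4.26 and 3.74 against 1.26 and 1.49, leukocyte markers to 57.4 and 57.0 against 38.8 and 39.9, nearly all of it CD68, and endothelial markers to 9.21 and 10.3 against 5.49 and 4.95, mostly CDH5, while PECAM1 went from 0.0376 and 0.0308 to 1.31 and 0.923. Epithelial keratins (KRT8, KRT18 and KRT19) summed to 368 and 370 in shCtl against 205 and 209 in shMAML2. PTPRC, which defines leukocytes, was at or below 0.0173, and the part of any of these markers in the results below was not tested. In bulk RNA, fewer cells expressing a gene and less RNA of it per cell cannot be told apart.

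TEAD factors bind DNA at the motif GGAATG. Promoter windows from RefSeq on GRCh38.p14, which run from 250 bases before a gene's start to 50 after it, were found for 2 of the 6 members, CCN2 and CCN6. Both are shown, as no window was found for the other members. CCN2 fell in shMAML2, and CCN6 lay at the limit of detection. Only the 250 bases before the start are printed, in the direction of transcription, with capitals marking GGAATG on either strand.
CCN2 (chr6:131951373-131951622, minus strand): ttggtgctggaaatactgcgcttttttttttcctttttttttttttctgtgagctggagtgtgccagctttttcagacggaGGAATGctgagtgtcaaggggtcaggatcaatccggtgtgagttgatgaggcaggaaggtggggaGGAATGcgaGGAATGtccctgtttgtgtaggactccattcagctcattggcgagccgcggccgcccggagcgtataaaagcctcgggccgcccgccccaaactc
CCN6 (chr6:112053854-112054103, plus strand): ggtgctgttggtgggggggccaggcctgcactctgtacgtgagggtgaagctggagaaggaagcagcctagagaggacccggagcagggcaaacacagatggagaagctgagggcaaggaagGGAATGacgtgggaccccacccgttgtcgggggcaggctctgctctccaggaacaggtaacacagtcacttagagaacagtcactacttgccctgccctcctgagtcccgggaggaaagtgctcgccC

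The CCN2 window held 3 copies of GGAATG, which begin at positions -169, -104 and -95 counted from the start. The last 2 copies are set close together with the bases cga between them. Of 35116 windows of the same length, 14.03% held at least 1 copy on either strand and 0.128% held at least 3. The CCN6 window held 2 copies, and 1.37% of windows held at least as many. One of them begins at position -128, and the other lies on the opposite strand across the start itself, so only its first base is printed. Neither window held the CArG box bound by SRF, the AP-1 motif TGANTCA or the palindromic SMAD motif GTCTAGAC, which occurred in 1.29%, 7.71% and 0.202% of windows. These are matches of letters, other forms of the motifs were not searched for, and no binding was measured.

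CCN1 and CCN2 were the abundant members in shCtl, and both fell sharply in shMAML2. CCN3 was expressed at a low level in every library and did not fall, and CCN4, CCN5 and CCN6 stayed under an RPKM of 1 in all 4 libraries. The 3 members above that limit were among the 12157 genes tested, and 2 of them were called lower, as were 8.93% of all genes tested. A call required at least a 2-fold change together with an adjusted p not above 0.05. None of the 3 was called higher in edgeR's quasi-likelihood test, DESeq2 or limma, against 9.24% of all genes tested in edgeR. In each of those tools 1 member, CCN3, was higher at an unadjusted p under 0.05. In RPKM, 2 of the 3 were lower in both shMAML2 libraries than in both shCtl libraries and 1 was higher in both. Among all genes tested, 47.1% were lower and 38.9% higher in this sense.

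**Figure D1:**
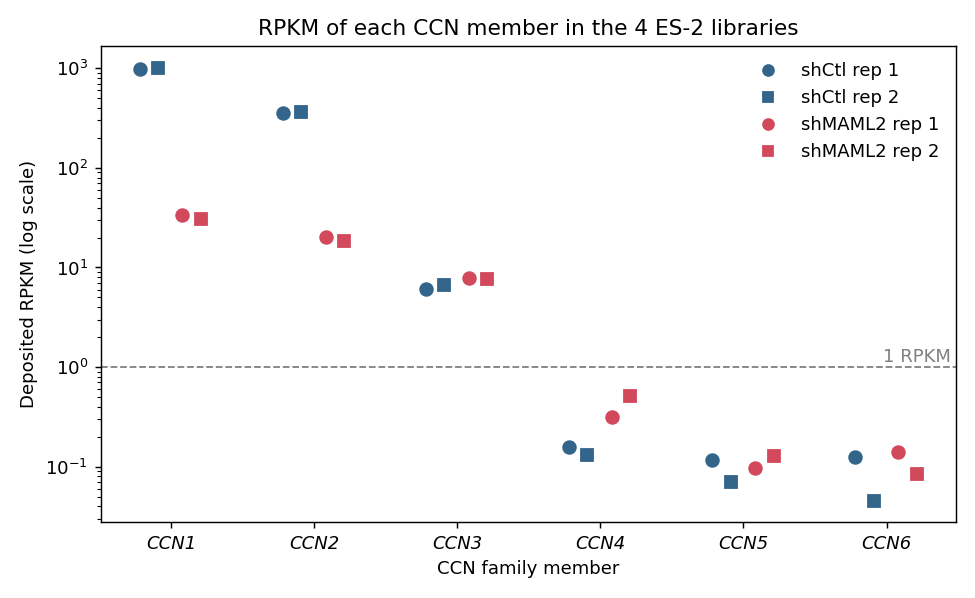
Deposited RPKM (log axis) of the 6 CCN members, with 1 point per library, 2 shCtl libraries in blue and 2 shMAML2 libraries in red. CCN1 and CCN2 lie more than 10-fold lower in shMAML2, CCN3 lies between 6.12 and 7.90 in all 4 libraries, and CCN4, CCN5 and CCN6 lie under the dashed line at an RPKM of 1.

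CCN1 promotes cell adhesion, migration and angiogenesis through integrins. The gene lies on chromosome 1 of hg38 from 85580761 to 85584589 (plus strand) (GENCODE release 44), where no other annotated gene overlaps it. Its estimated counts were 51990 and 55181 in the shCtl libraries and 2200 and 1830 in the shMAML2 libraries. The RPKM values were 975 and 1017 in shCtl and 33.7 and 31.0 in shMAML2. The groups were far apart, and each pair of libraries lay close together. By RPKM, CCN1 ranked 37 and 38 of 19626 genes in shCtl and 1388 and 1551 in shMAML2, so it moved from among the most abundant transcripts to a moderate level. From a control mean of 996 ± 30.1 RPKM (SD, n = 2) the level went to 32.4 ± 1.93 (SD, n = 2), and 3.25% of it remained. Over the 4 possible comparisons of a knockdown with a control library, the remainder ran from 3.05% to 3.46%. By edgeR the log2 fold change was -4.88 (SE 0.0474, adjusted p = 8.08e-17). This is a 29.4-fold lower level, with a 95% confidence interval from 27.4-fold to 31.6-fold, and place 20 from the lowest among the 12157 genes tested.

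CCN2, a mediator of matrix production and fibrosis downstream of TGF-beta, lies on chromosome 6 from 131948176 to 131951372 (minus strand). Its counts were 19544 and 20305 in shCtl and 1363 and 1110 in shMAML2. In RPKM the shCtl libraries stood at 357 and 365 and the shMAML2 libraries at 20.4 and 18.3. As for CCN1, no knockdown library came near a control library. The control mean was 361 ± 5.48 (SD, n = 2) and the knockdown mean 19.3 ± 1.45 (SD, n = 2), or 5.36% of it, with a range from 5.02% to 5.70% over the 4 comparisons of libraries. CCN2 had rank 116 by RPKM in both shCtl libraries and ranks 2422 and 2702 in shMAML2. The edgeR log2 fold change of CCN2 was -4.15 (SE 0.0513, adjusted p = 6.65e-16). The level was thus 17.8-fold lower, with a 95% confidence interval from 16.5-fold to 19.2-fold, and CCN2 held place 35 from the lowest fold change. LINC01013, a noncoding RNA gene annotated on the opposite strand, shares 278 exonic bases with CCN2, and the libraries carry no strand. LINC01013 itself had at most 2 counts in any library.

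The fall of CCN1 exceeded that of CCN2. The ratio of CCN1 to CCN2 RPKM was 2.73 and 2.79 in the shCtl libraries and 1.66 and 1.69 in the shMAML2 libraries. CCN1 stayed the more abundant of the pair in every library, but by a smaller margin after the knockdown. On the log2(RPKM + 0.1) scale the ratio averaged 1.46 ± 0.0218 (SD, n = 2) for shCtl libraries but 0.74 ± 0.0216 (SD, n = 2) for shMAML2 libraries, a difference of -0.72. The groups did not overlap, and an exact two-sided permutation test gave p = 0.333, the smallest value that 2 against 2 libraries can give, so this design cannot reach 0.05 for the difference. The 95% confidence intervals of the fitted falls did not overlap either.

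**Figure D2:**
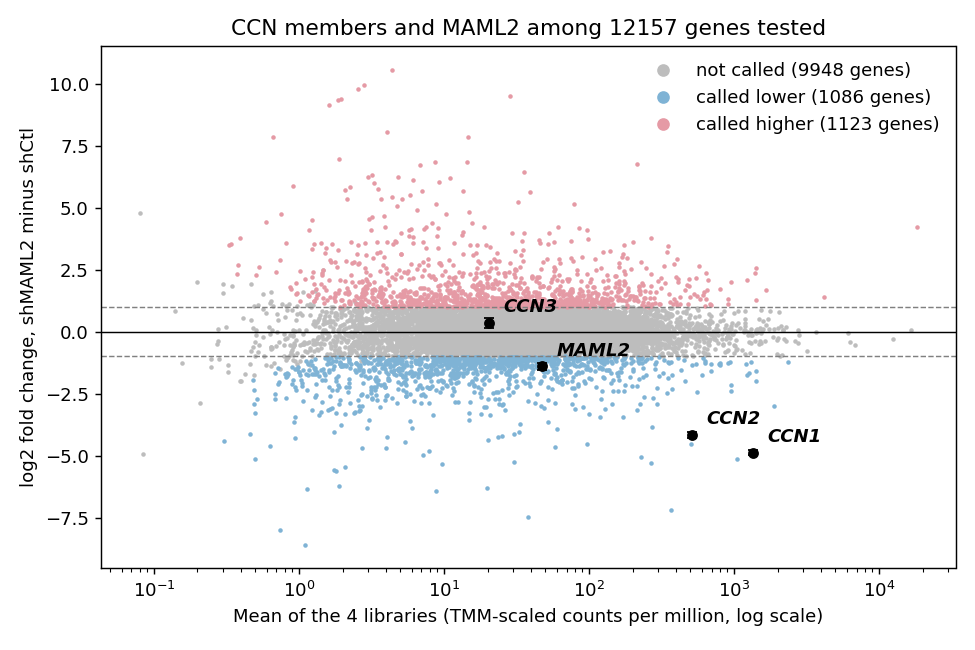
Log2 fold change (shMAML2 minus shCtl) of the 12157 genes tested against their mean TMM-scaled CPM (log axis), with 1086 genes called lower in blue, 1123 called higher in red and the rest in grey. Black points with 95% confidence intervals mark MAML2 and the 3 members tested: CCN1 at -4.88 and CCN2 at -4.15 lie far below the dashed line at -1, and CCN3 at 0.35 lies inside the dashed lines.

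CCN3, which often opposes CCN2 in fibrosis and restrains growth in several cell types, lies on chromosome 8 from 119416446 to 119424434 (plus strand). Its counts were 353 and 390 in shCtl and 557 and 486 in shMAML2. The RPKM values were 6.12 and 6.65 in shCtl and 7.90 and 7.61 in shMAML2. Both knockdown libraries were above both control libraries, by a margin small against the changes of CCN1 and CCN2. The means were 6.39 ± 0.372 RPKM (SD, n = 2) for the controls against 7.75 ± 0.199 (SD, n = 2) for the knockdown. In edgeR this was a log2 fold change of 0.35 (SE 0.0974, adjusted p = 0.00584), a 1.27-fold higher level with a 95% confidence interval from 1.10-fold to 1.47-fold. The value passed the p threshold and missed the fold limit, so CCN3 was not called. Without a fold limit, 36.3% of all genes tested were higher at that p threshold. The annotation places a noncoding RNA gene on the opposite strand of CCN3 with 204 shared exonic bases, and reads of the pair cannot be separated.

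CCN4, a target of WNT and beta-catenin signaling, lies on chromosome 8 from 133191039 to 133231690 (plus strand). The shCtl libraries held 19 and 16 counts of it and the shMAML2 libraries 47 and 69. The RPKM was 0.156 and 0.129 in shCtl and 0.316 and 0.513 in shMAML2. Both knockdown libraries were higher than both controls, at a level that stayed under the RPKM limit for testing. Summed over each group and scaled by TMM, the level was 3.003-fold higher in shMAML2, with an exact 95% interval from 2.04-fold to 4.52-fold that covers counting error only. When genes with low values were kept in the edgeR fit, the log2 fold change of CCN4 was 1.56 (SE 0.400, adjusted p = 0.000260), and it was called higher, as were 8.45% of the 19626 genes in that fit. With edgeR's filterByExpr in place of the RPKM limit it was called as well, at 1.58 (adjusted p = 0.00431), where 10.9% of genes were called higher.

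CCN5, the member without the cystine knot and an inhibitor of smooth muscle cell growth, lies on chromosome 20 from 44714844 to 44728509 (plus strand). Only 5 and 3 counts were seen in shCtl, and 5 and 6 in shMAML2. CCN6, a cartilage gene mutated in a childhood joint disease, lies on chromosome 6 from 112054075 to 112069686 (plus strand). Its estimated counts were 8.04 and 3 in shCtl and 11.1 and 6.06 in shMAML2. For both genes the groups overlapped, and no library exceeded an RPKM of 0.140. The ratio of shMAML2 to shCtl was 1.25 for CCN5, with an exact 95% interval from 0.456 to 3.57, and 1.40 for CCN6, with an interval from 0.619 to 3.31. The intervals cover counting error only and include 1, so no difference was detectable at this depth, and changes of the size seen for CCN1 or CCN2 lie outside them. The CCN6 ratio rests on few counts: without shCtl replicate 1 it was 1.38 on the log2 scale, against 0.49 with all libraries.

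Ordered by RPKM, which is scaled by transcript length, the levels in shCtl ran CCN1, CCN2, CCN3, CCN4, CCN5 and CCN6. Each of the first 3 exceeded the next in every library. CCN5 and CCN6 had overlapping values, and CCN4 stood above CCN5 and CCN6 in all 4 libraries. In shMAML2 the first 4 kept this order, with smaller steps: CCN2 was 58.3 and 54.8 times as abundant as CCN3 in shCtl and 2.58 and 2.40 times in shMAML2.

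The family as a whole was dominated by CCN1 and CCN2. Its summed RPKM was 1338 and 1389 in shCtl and 62.5 and 57.6 in shMAML2, so that 4.41% remained. The libraries of each group lay close together and the groups far apart, and an exact two-sided permutation test gave p = 0.333, again the smallest value possible. Family reads made up 0.359% and 0.372% of all counts in shCtl and 0.0174% and 0.0161% in shMAML2. CCN1 contributed 72.8% and 73.2% of the summed RPKM in shCtl and 53.9% and 53.8% in shMAML2. The share of CCN2 was 26.7% and 26.3% in shCtl and 32.6% and 31.8% in shMAML2. CCN3 went from 0.458% and 0.479% of the family in shCtl to 12.6% and 13.2% in shMAML2. This larger share of CCN3 comes with a level of CCN3 itself that was 1.21-fold higher in RPKM and 1.27-fold higher in edgeR. CCN1 and CCN2 meanwhile fell to 3.25% and 5.36% of their control mean RPKM.

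**Figure D3:**
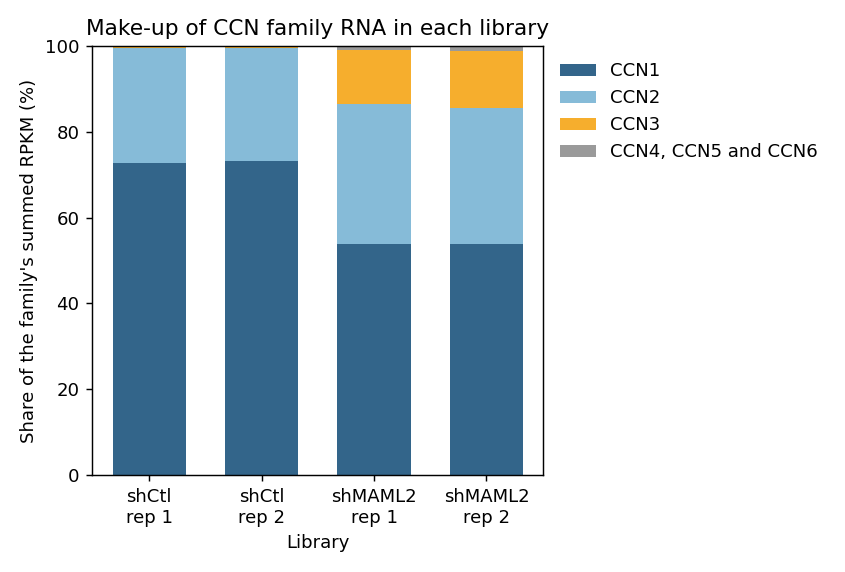
Share of the summed RPKM of the 6 CCN genes held by each member, in each of the 4 libraries (bars add to 100%). CCN1 makes up 72.8% and 73.2% in shCtl and 53.9% and 53.8% in shMAML2, and CCN3 grows from under 0.5% to 12.6% and 13.2%.

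The genes whose pattern over the 4 libraries lay nearest to those of CCN1 and CCN2 were sought among 2622 genes tested with a shCtl mean RPKM of at least 20. Nearness was the root mean square difference of log2(RPKM + 0.1), after each gene was centered on its own shCtl mean. For CCN1 these were CCBE1, CPA4 and ITGB2, at 0.0682, 0.184 and 0.247 log2 units. CCBE1, a secreted factor of lymphatic development, had an RPKM of 61.4 and 62.1 in shCtl and 1.82 and 1.78 in shMAML2. For CCN2 they were DAW1, SERPINB7 and AOX1, at 0.146, 0.160 and 0.209 log2 units. DAW1, an assembly factor of ciliary dynein, had an RPKM of 21.7 and 23.4 in shCtl and 1.16 and 1.31 in shMAML2. With 4 libraries in 2 groups, likeness amounts to a fall of similar size.

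Genes around the CCN proteins were read from 5 lists that hold 70 distinct genes. Of these, 49 were tested, and 8 were called lower and 21 higher by the rule above, whose shares over all genes were 8.93% and 9.24%. The median log2 fold change of all genes tested was near 0, at -0.0037, and the median of each list was above it. These counts describe the lists and were given no test.

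CCN proteins bind cells through integrins, syndecans and LRP receptors. Of 12 listed receptors and co-receptors 10 were tested, with a median log2 fold change of 0.83. Of these, 2 were called lower and 3 higher, against 8.93% and 9.24% of all genes tested. ITGB2, the beta chain of leukocyte integrins, fell from an RPKM of 32.8 and 32.4 in shCtl to 1.22 and 1.27 in shMAML2 (log2 fold change -4.65). Its antisense gene ITGB2-AS1 shares 303 exonic bases and went from 158 and 155 counts to 9 and 4.11, and the libraries do not tell the strands apart. ITGA6, a chain of laminin receptors that also binds CCN1, had a log2 fold change of -1.59. Higher were ITGA5, the alpha chain of the fibronectin receptor, at 2.64, and ITGAV, which pairs with ITGB3 or ITGB5 to bind CCN1 and CCN2, at 1.97. Annotated noncoding RNA genes on the opposite strand also share exonic bases with ITGA5, ITGA6 and ITGAV. With a fold limit of 1.5 in place of 2, 8 of the 10 were called higher, where 18.9% of all genes tested were.

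Among 20 factors, ligands and receptors known to act on CCN1 or CCN2 transcription, all were tested, with a median log2 fold change of 0.44. Of these, 3 were called lower and 7 higher, against 8.93% and 9.24% of all genes tested. EDN1, the ligand endothelin 1, fell from an RPKM of 8.08 and 8.11 to 0.257 and 0.114 (log2 fold change -5.34). This value ran from -6.05 without shMAML2 replicate 1 to -4.90 without shMAML2 replicate 2, and was -2.94 on the log2(RPKM + 1) scale. TGFB2, a TGF-beta ligand, had a log2 fold change of -2.92, and it overlaps TGFB2-AS1 and TGFB2-OT1. TGFBR2, the type II receptor for TGF-beta, rose from 30.4 and 30.3 to 116 and 115 RPKM (1.99). TEAD2 rose with a log2 fold change of 1.81 and shares 319 exonic bases with CD37. The other TEAD genes and the coactivators, also on this list, are named here after their values were seen. TEAD4 was called lower, at -1.21. TEAD1, at 0.61 (adjusted p = 2.31e-08), was higher but missed the fold limit, and TEAD3 was not called, at 0.02 (adjusted p = 0.848). WWTR1 was called higher, at 1.81, as were MRTFA and MRTFB, the coactivators of SRF, at 1.01 and 1.53. On the log2(RPKM + 1) scale MRTFA and MRTFB were at 0.78 and 0.97 and no longer called. MRTFA lay at the fold limit. It was under that limit also with total counts (0.97), no filter (0.98), filterByExpr (0.99) and log2(RPKM + 0.1) (0.92). Without shCtl replicate 2 it was at 0.96. YAP1, whose counts include the fusion's YAP1 part, was at 0.42 (adjusted p = 1.79e-07), also higher but under the fold limit and not called. The fall of CCN1 and CCN2 was therefore accompanied by lower TEAD4 and higher TEAD2, WWTR1, MRTFA and MRTFB RNA, with MRTFA at the fold limit. TEAD1 and YAP1 RNA was also higher, under the fold limit. The part of these genes in the fall was not tested.

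Of 12 matrix and growth factor partners of CCN proteins 7 were tested. None was called lower by edgeR, against 8.93% of all genes tested, and 5 were called higher, against 9.24%. None was lower at an unadjusted p under 0.05 in edgeR, DESeq2 or limma, and the single value below 0 was that of HSPG2 (perlecan), at -0.02, named here for that reason. FN1 (fibronectin), which CCN2 binds through its cystine knot, rose from an RPKM of 178 in each shCtl library to 3207 and 3146 in shMAML2 (log2 fold change 4.22). TNFRSF11B, the decoy receptor osteoprotegerin, went from 7 and 5 counts in the controls to 187 and 152 after the knockdown (log2 fold change 4.65, and 1.82 on the log2(RPKM + 1) scale). The median of the 7 was 1.82.

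Of 13 proteases known to cut CCN proteins only 4 were tested, and 2 were called higher and 1 lower. Among all genes tested, 9.24% were called higher and 8.93% lower. MMP1, the most abundant of the 4, had a mean RPKM of 845 in shCtl and 883 in shMAML2. Its log2 fold change was 0.13, and it was not called. MMP1 is named here after its value was seen. MMP2 and MMP14, a gelatinase and a membrane-bound collagenase, were called higher, with log2 fold changes of 2.36 and 2.18. MMP3, a stromelysin, was called lower at -1.67, and its counts were 48.0 and 44.9 in the controls against 15 and 17 after the knockdown. On the log2(RPKM + 1) scale the MMP3 value was -0.65 and no longer called. With genes of low RPKM kept in the fit, 5 proteases were called higher and 2 lower, where 8.45% and 7.76% of all genes were. The added genes were MMP13, ADAM28 and ADAMTS4, with log2 fold changes of 3.35, 1.66 and 2.995, and KLK14, lower. With filterByExpr the count called higher was also 5, against 10.9% of all genes, and these genes are named after their values were seen.

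Outside the CCN family, 14 genes encode proteins that start with an IGFBP module, and 9 of them were tested. Of these 2 were called lower and 5 higher, against 8.93% and 9.24% of all genes tested. The median log2 fold change of the 9 was 1.11. ESM1, an endothelial proteoglycan, and IGFBP3, the main carrier of insulin-like growth factors in serum, were the lowest at -2.91 and -2.89. HTRA1, a secreted serine protease, and IGFBP4, another binding protein, were the highest at 2.97 and 2.56. The IGFBP4 value moved with single control libraries, from 2.08 without shCtl replicate 1 to 3.30 without shCtl replicate 2, and was 1.11 on the log2(RPKM + 1) scale.

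**Figure D4:**
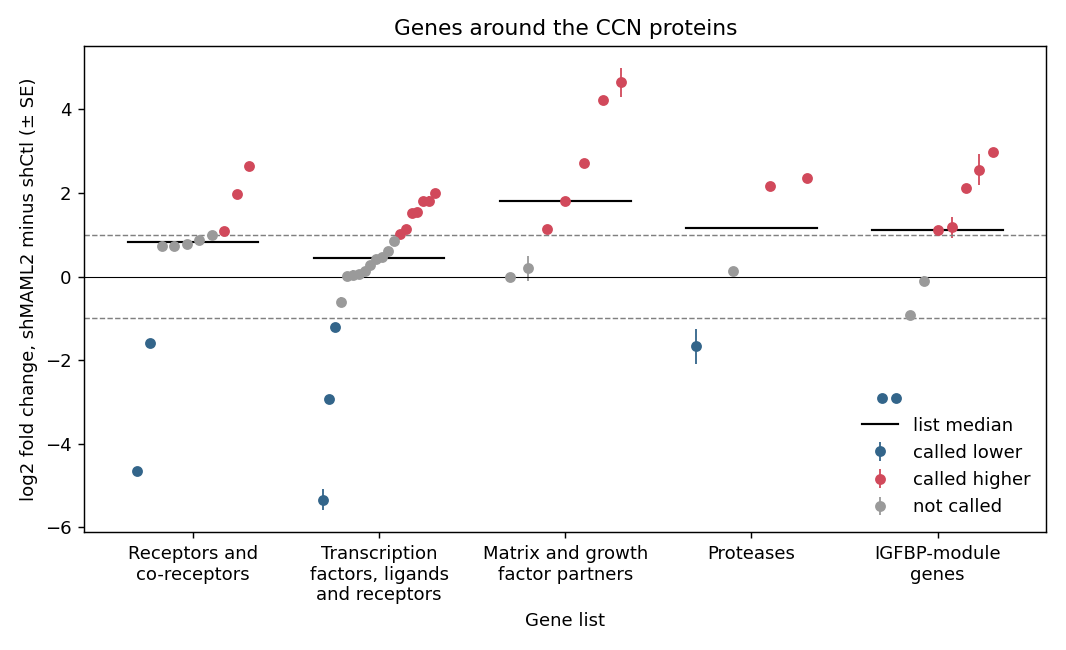
Log2 fold change (shMAML2 minus shCtl) with its standard error for each gene tested in the 5 lists, colored by call, with the list median as a black bar and dashed lines at a fold change of 2. Medians run from 0.44 for transcription factors, ligands and receptors to 1.82 for matrix and growth factor partners, and the lowest values are those of EDN1 at -5.34 and ITGB2 at -4.65.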

How the data were processed

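RNA-seq libraries (2 shCtl, 2 shMAML2) were non-strand-specific and paired-end. Per the labels and the study's methods, the authors aligned reads to hg38 with HISAT2 2.0.4, removed ambiguous reads and those with mapping quality under 10, and quantified RefSeq transcripts in Partek 7.18. The deposited table of estimated counts holds values without normalization, of which 42.4% to 48.59% per library are whole. RPKM values were scaled by the authors for length and mapped reads.

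Counts were rounded and tested with edgeR 4.0.16 (R 4.3.3; TMM factors, glmQLFit, glmQLFTest) over genes whose RPKM exceeded 1 in 1 library or more. Standard errors are the log2 fold change over the square root of F. Alternatives used DESeq2 1.42.0, limma 3.58.1, other scalings, filters and fold limits, single libraries left out, and the replicate number as a block. The fit was also run on simulated data, drawn after the main fit from its control means and with 1 spread for all genes. Replicates were distinct libraries: their counts differed by 3.51 (shCtl) and 4.09 (shMAML2) times sampling noise, as chi-square per degree of freedom. Positions come from GENCODE release 44 on hg38, which is also the authors' build, and promoters from RefSeq (GRCh38.p14). Intervals for low counts are exact binomial (Clopper-Pearson). The members and lists were chosen with earlier results of these data known. Named genes are the members, MAML2, up to 2 called genes in each direction per list with the largest changes, and 3 nearest patterns for each of CCN1 and CCN2. Coactivators, further TEAD genes, HSPG2, MMP1 and proteases below the RPKM limit were named outside this rule, after their values were seen. One listed marker is not reported here.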

Additional observations from a re-analysis of the deposited data

How the results depend on the processing

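CCN1 and CCN2 were called lower under all 14 alternatives, so that 2 members were called lower in each. Their log2 fold changes ran from -4.94 to -4.82 and from -4.23 to -4.09. CCN3 ran from 0.25 to 0.40, with an adjusted p of at most 0.0407, and MAML2 from -1.44 to -1.22. The count of members called higher was 1 in place of 0 with no filter (CCN4), with filterByExpr (CCN4) and with no fold limit (CCN3). CCN4 ran from 1.21 to 1.92 on the log2 scale when single libraries were left out. Over all genes tested, 1086 were called lower and 1123 higher, against 724 and 596 with limma on log2(RPKM + 1). Genes of the lists called higher numbered 21, and 32 with no fold limit, where 36.3% of all genes tested were higher in place of 9.24%. The difference between the CCN1 and CCN2 changes was -0.75 with log2(RPKM + 1), and ran from -0.74 to -0.71 with single libraries left out. The summed family level remaining was 4.91% in TPM and 4.71% in TMM-scaled CPM, and ran from 4.23% to 4.59% with single libraries left out. With the replicate number as a replicate block, CCN1 was at -4.88, CCN2 at -4.16 and CCN3 at 0.35, and no call on a member or MAML2 changed. Over all genes the block gave 1079 lower and 1123 higher. Deviations of same-numbered libraries had a correlation of -0.0081, and the labels tie no number to a shared culture or day. Depth limits CCN5 and CCN6, with at most 11.1 counts in a library.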
